A study of Mus musculus with 5 samples.

Results

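The KAP1 peak list holds 82775 regions of the mouse genome. It was called on chromatin immunoprecipitation followed by sequencing (ChIP-seq) of KAP1 in vehicle-treated embryonic stem cells, with the KAP1 ChIP of the same cell line after deletion of the gene as control. All of its peaks are described here, out of 105219 peaks in the 3 lists of the study. Together they covered 49.9 Mb. The study also contains 2 lists of Ring1b peaks and 6 tables that sort promoters and genes by the protein found there.

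The cells are mouse embryonic stem cells with conditional (KAP1 fl/fl) alleles of Trim28, the gene of KAP1. One culture received ethanol as vehicle and the other 4-hydroxytamoxifen, each for 24 h, followed by 48 h without the drug. Both grew on irradiated mouse embryonic fibroblast feeders, and the sources used here do not say whether feeder cells were removed before fixation, which recombinase was used or how many clones there were. Cells were fixed for 10 min in 1.2% formaldehyde, chromatin was fragmented to about 200 bp, and 5 µg of anti-KAP1 antibody was used. The other 3 libraries are Ring1b ChIP from Ring1b fl/fl cells with vehicle or drug and from KAP1 fl/fl cells with drug. Each group has 1 library, so no value has a replicate error and no difference between conditions was tested. Intervals in brackets are exact 95% intervals and cover counting error over peaks, promoters or genes only. Neighbouring peaks share a library and are not replicates.

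KAP1 is a corepressor that does not recognise DNA sequences itself. It is brought to DNA mainly by zinc finger proteins with a KRAB domain, and in turn brings the histone H3 lysine 9 methyltransferase SETDB1 and HP1 proteins. In embryonic stem cells it is best known for silencing retrotransposons and protecting imprints, and it has also been mapped at promoters.

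The following stretches are the 200 bases before the start of 6 genes described below, read along the strand of the gene from the RefSeq promoter table of GRCm38.p6. They are shown as examples of promoters with a KAP1 summit, the base of highest signal of a peak, and differ in base composition, from 17 CG dinucleotides in Rnf2 to 3 in Esrrb. The 21 bases centred on the summit are in capitals.
Rnf2: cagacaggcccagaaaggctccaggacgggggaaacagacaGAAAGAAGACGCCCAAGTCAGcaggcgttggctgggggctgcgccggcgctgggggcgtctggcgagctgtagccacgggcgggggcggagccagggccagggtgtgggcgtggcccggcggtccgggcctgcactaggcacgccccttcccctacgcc
Pitpnc1: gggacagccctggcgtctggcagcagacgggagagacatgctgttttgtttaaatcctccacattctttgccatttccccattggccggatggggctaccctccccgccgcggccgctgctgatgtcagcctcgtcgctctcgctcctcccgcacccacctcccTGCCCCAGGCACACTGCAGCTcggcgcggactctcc
Tfcp2l1: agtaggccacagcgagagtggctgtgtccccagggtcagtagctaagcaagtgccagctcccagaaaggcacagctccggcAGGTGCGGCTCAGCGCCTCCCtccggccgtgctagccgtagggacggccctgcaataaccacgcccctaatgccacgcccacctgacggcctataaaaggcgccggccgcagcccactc
Agtrap: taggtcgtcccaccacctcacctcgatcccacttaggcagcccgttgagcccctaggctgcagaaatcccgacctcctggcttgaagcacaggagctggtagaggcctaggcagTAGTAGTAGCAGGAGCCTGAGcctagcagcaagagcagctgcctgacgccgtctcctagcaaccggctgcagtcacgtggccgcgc
Nr5a2: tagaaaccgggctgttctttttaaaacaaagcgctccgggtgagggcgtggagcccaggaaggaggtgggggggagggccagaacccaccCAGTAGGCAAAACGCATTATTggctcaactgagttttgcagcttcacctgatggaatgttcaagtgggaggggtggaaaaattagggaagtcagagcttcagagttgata
Esrrb: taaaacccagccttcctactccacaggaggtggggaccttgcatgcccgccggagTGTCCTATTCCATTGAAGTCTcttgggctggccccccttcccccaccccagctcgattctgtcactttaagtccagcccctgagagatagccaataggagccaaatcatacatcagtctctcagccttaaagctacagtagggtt

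The Rnf2 stretch lies at chr1:151500992-151501191 on the minus strand, with the summit at -149 bp from the start and a peak of 1530 bp. The Pitpnc1 stretch, with 14 CG, lies at chr11:107470721-107470920 on the minus strand with the summit at -26 bp. The Tfcp2l1 stretch also has 14 CG and lies at chr1:118627745-118627944 on the plus strand with the summit at -109 bp. Agtrap has 10 CG, at chr4:148088065-148088264 on the minus strand with the summit at -76 bp. It holds the letters CACGTG and AGGCCT, which are counted over all promoters below, and the other 5 stretches hold neither. Nr5a2 has 5 CG, at chr1:136953631-136953830 on the minus strand with the summit at -100 bp. Esrrb has 3 CG, at chr12:86421444-86421643 on the plus strand with the summit at -135 bp.

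Both genes deleted in the study carried KAP1 peaks. Trim28 (chr7:13024152-13031032, plus strand) had 4 peaks around its start, with summits at -1377, -754, 51 and 909 bp. Their scores were 77.0, 199, 161 and 80.1. The score is the authors' own value for each peak, 10 times the -log10 p against the control library, and it ranks peaks within the list only. Rnf2 (chr1:151469398-151500991, minus strand) encodes Ring1b, a ubiquitin ligase of Polycomb repressive complex 1. It had 5 peaks, the highest with a score of 304 at the start and the others at 3756, 16729, 27951 and 29330 bp into the gene, with scores of 151, 227, 192 and 268. A peak list gives no signal level per library, so these peaks do not measure how far Trim28 was deleted.

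KAP1 summits were concentrated in a narrow window at transcript starts. RefSeq starts of protein-coding genes were used on all chromosomes except 18, whose starts were not used here. That leaves 80151 peaks and 20488 starts, of 16853 of the 21031 protein-coding genes. Chromosome 18 had 5.74 protein-coding genes per Mb over 87.6 Mb. Most genes without a start in use therefore lie on other chromosomes, among them Actb and Myc. Peaks at their starts can count here as far from a start, so the share within 5 kb of a start can be too low. Of the 80151 peaks, 19154 (23.9%) had their summit within 5 kb of a start, and 6397 (7.98%) lay from 300 bp before to 100 bp after it. In steps of 100 bp, 1317 summits lay from -200 to -100 bp, 2101 in the last 100 bp before the start and 2392 in the first 100 bp after it. The next 100 bp held 573, which is 4.17-fold fewer. At 3 to 5 kb from a start the median was 83.5 summits per 100 bp, with 82 before and 86 after, so the first 100 bp of transcripts held 28.6-fold more.

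The profile was not symmetric about the start. In steps of 25 bp it climbed from 170 summits at -225 to -200 bp to 755 at 25 to 50 bp, then fell to 97 at 150 to 175 bp. A smaller rise followed, with 172 summits at 225 to 250 bp. The rise before the start was thus more gradual than the drop after it. Beyond 300 bp the counts came down more slowly on the transcribed side, with 211 summits at 900 to 1000 bp after starts and 145 at -1000 to -900 bp. At 2000 to 2100 bp after starts there were 108 summits and at 2900 to 3000 bp 90.

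**Figure D1:**
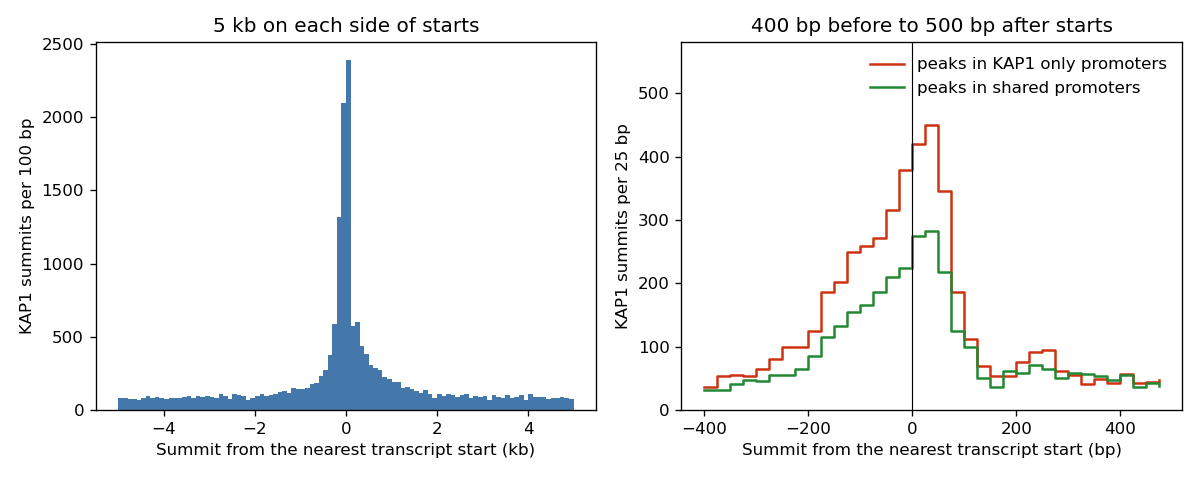
KAP1 summits by distance from the nearest transcript start, along the direction of transcription. The left panel counts all peaks per 100 bp over 5 kb on each side in kb, with 2392 summits just after the start, and the right panel counts summits per 25 bp in the shared and KAP1 only promoters, which both are highest at 25 to 50 bp, with 283 and 449, and drop to 36 and 54 at 150 to 175 bp.

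Peaks at starts were wider and scored higher than peaks elsewhere. The 11243 peaks within 1 kb of a start in use had a median width of 726 bp and a median score of 129. The 60996 peaks over 5 kb from every start in use had 484 bp and 92.1. Here and below, values of classes of peaks within the list are a description with no test. In all, 8796 peaks (11.0%) spanned a start. They reached a median of 343 bp before it and 424 bp after it, with a median width of 805 bp and a median score of 146. Their median summit was at -5 bp, or at 0.445 of the peak's width along the direction of transcription. Of these peaks, 41.8% reached farther before the start than after it.

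The authors' tables separate promoters found with both KAP1 and Ring1b (shared) from those with KAP1 only. Within 1 kb of a start, the median summit was at 10 bp in 4549 peaks of shared promoters (quartiles -140 and 245 bp) and at -4 bp in 6134 peaks of KAP1 only promoters (quartiles -140 and 113 bp). The first quartiles were equal and the spread differed on the transcribed side. The window from 300 bp before to 100 bp after the start held 52.7% of the summits of shared promoters and 60.8% of those of KAP1 only promoters. More than 100 bp after the start lay 33.0% and 26.2%. The median score was 135 in shared and 126 in KAP1 only promoters, and the median width 777 and 700 bp.

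KAP1 summits at promoters lay mostly in CG-rich sequence. In the window from 250 bases before to 50 bases after a start, 5879 of 20488 promoters held a summit. Each start counts as a promoter, and close starts of the same gene can share a summit, as in Msi2 and Zfp932. The intervals for promoters treat such starts as independent and are too narrow to that extent. Promoters with a summit had a median of 7.67 CG per 100 bases, against 2.67 in promoters without one and 4.67 in all. Their median GC content was 62.7%, against 53.3% without and 57.0% in all. At least 5 CG per 100 bases were found in 79.8% of promoters with a summit and 35.5% of those without.

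The share of promoters with a summit depended on CG content up to a plateau. It was 1.45% (1.08 to 1.91) of 3450 promoters under 1 CG per 100 bases, and 4.86% (4.10 to 5.72) from 1 to 2. It was 18.0% (16.6 to 19.4) from 2 to 4 and 38.8% (37.0 to 40.7) from 4 to 6. From 6 to 8 CG it reached 48.4% (46.6 to 50.3), from 8 to 10 CG 51.6% (49.6 to 53.7), and at 10 or more it was 46.0% (44.3 to 47.7). The highest bin was below the one before it.

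3 short motifs were searched on both strands of the same windows. TGCCGC, to which the KRAB protein ZFP57 binds when it is methylated, was in 22.2% of promoters with a summit, 11.4% of those without and 14.5% of all. CACGTG, the E-box of MYC and MAX, was in 11.2%, 6.76% and 8.03%. AGGCCT, the core of the ZFX motif, was in 10.7%, 9.96% and 10.2%. TGCCGC and CACGTG contain a CG, so promoters of like CG content were compared. At 6 or more CG per 100 bases, a summit was found in 48.1% (46.0 to 50.2) of promoters with TGCCGC and 48.5% (47.3 to 49.8) of those without. For CACGTG the shares were 51.5% (48.3 to 54.6) and 48.0% (46.9 to 49.2), and for AGGCCT 47.8% (44.5 to 51.2) and 48.5% (47.4 to 49.6). In this CG range the intervals of promoters with and without each motif overlapped. From 2 to 6 CG, the shares with and without TGCCGC were 36.2% (32.4 to 40.2) and 26.6% (25.4 to 27.8). For CACGTG they were 28.7% (24.6 to 32.9) and 27.5% (26.3 to 28.7), and for AGGCCT 31.2% (27.5 to 35.1) and 27.2% (26.0 to 28.4). Under 2 CG they were 9.92% (5.39 to 16.4) and 2.84% (2.44 to 3.29) for TGCCGC, 4.65% (2.03 to 8.96) and 2.94% (2.53 to 3.40) for CACGTG, and 4.23% (2.78 to 6.14) and 2.85% (2.44 to 3.32) for AGGCCT. In these lower ranges the intervals overlapped except for TGCCGC. CG content still varied within each range. In narrower bins, 64 of 244 promoters with TGCCGC held a summit at 2 to 4 CG, beside 549 of all 3058, and 156 of 363 at 4 to 6 CG, beside 1021 of all 2630. From 1 to 2 CG it was 13 of 101, beside 138 of all 2839, and under 1 CG 0 of 30, beside 50 of all 3450. The counts of all promoters include those with the motif. A match of letters is a description and not a binding site.

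KAP1 peaks were closely spaced. The median gap, measured edge to edge over 82732 pairs of neighbours on a chromosome, was 6565 bp (6448 to 6675), with quartiles at 1501 and 23322 bp. Gaps of at most 1 kb made up 20.3%, at most 10 kb 58.6%, and at most 100 kb 93.2%. The spread was wide, with the 5th percentile at 111 bp and the 95th at 132667 bp. In 3835 pairs (4.64%) the gap was at most 100 bp, and in 6274 pairs (7.58%) at most 200 bp, about the stated fragment length. The smallest gap was 2 bp. Only 2005 peaks (2.42%) lay more than 100 kb from any other.

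**Figure D2:**
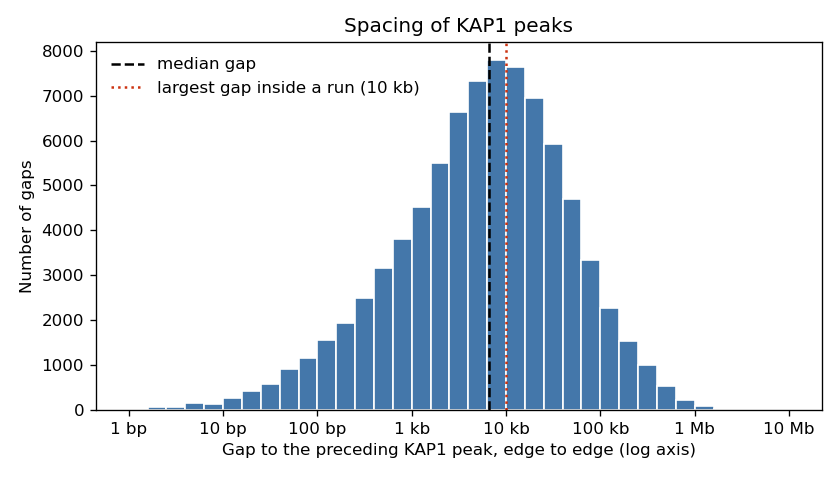
Number of gaps between neighbouring KAP1 peaks against the gap from edge to edge, on a log axis. The dashed line is the median of 6565 bp, and the dotted line at 10 kb is the largest gap allowed inside a run, which 58.6% of gaps do not exceed.

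Crowded peaks were somewhat wider and higher-scoring than lone ones. Peaks with a neighbour within 100 bp had a median width of 581 bp (quartiles 436 and 799) and a median score of 107 (70.8 and 178). Peaks over 100 kb from any other had 426 bp (340 and 588) and 75.6 (59.6 and 105). Across the bins of nearest gap in between, the median width came down at each step from 581 to 426 bp, while the quartiles of all bins overlapped. The score of a peak had little relation to that of the peak before it, with a Spearman coefficient of 0.0444 over neighbouring peaks, which share the library.

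Most KAP1 peaks lay in runs, here chains of peaks with gaps of at most 10 kb. There were 34253 such units in all, 19666 of them single peaks (23.8% of the list) and 6318 pairs. Runs of 3 or more numbered 8269 and held 50473 peaks, or 61.0% (60.6 to 61.3). They spanned 154 Mb, with a median span of 13.7 kb. Runs of 10 or more numbered 1151 and held 22.6% of peaks. Runs of 20 or more numbered 247, with a median span of 74.7 kb, and held 6837 peaks (8.26%).

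Peaks in long runs differed from single peaks in score and place. The median score was 85.6 for single peaks, 91.3 in pairs, 97.8 in runs of 3 to 4, 101 in runs of 5 to 9, 109 in runs of 10 to 19 and 114 in runs of 20 or more. The median width was 460 bp for single peaks and 580 bp in runs of 20 or more. The quartiles of the score overlapped, at 63.6 and 132 for single peaks and 72.5 and 194 in the longest class. The share of peaks in a promoter region of the tables was highest in pairs, at 23.1%, and lowest in runs of 20 or more, at 12.5%. The share inside protein-coding genes varied less, from 51.6% of single peaks to 57.3% in runs of 3 to 4. Most peaks lay outside promoter regions in every class of run.

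The run with the most peaks, 76 in 206 kb at chr4:132939432-133145193, covered Fgr, a Src family kinase gene, Ahdc1, which encodes an AT-hook DNA-binding protein, and Wasf2, an actin regulator. Its peaks covered 27.4% of the span, with scores from 50.5 to 578 and a median of 107. A run of 67 peaks at chr17:45430560-45632250 covered 11 genes, among them Hsp90ab1, which encodes a heat shock chaperone, and Slc29a1, a nucleoside transporter gene. Runs of 65 peaks lay at chr12:86787085-86960583 with Irf2bpl and Cipc, a regulator of the circadian clock, and at chr17:31722672-31877919 with Sik1, a salt-inducible kinase gene. The remaining 4 of the 8 runs with 50 or more peaks held the homeobox gene Prrx2 with 3 other genes (54 peaks), Tsc22d1 and Serp2 (52), the tensin gene Tns3 (50), and Lmna with Mex3a and 5 other genes (50). In the Tsc22d1 run, peaks covered 37.5% of the span and the highest score was 961.

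**Figure D3:**
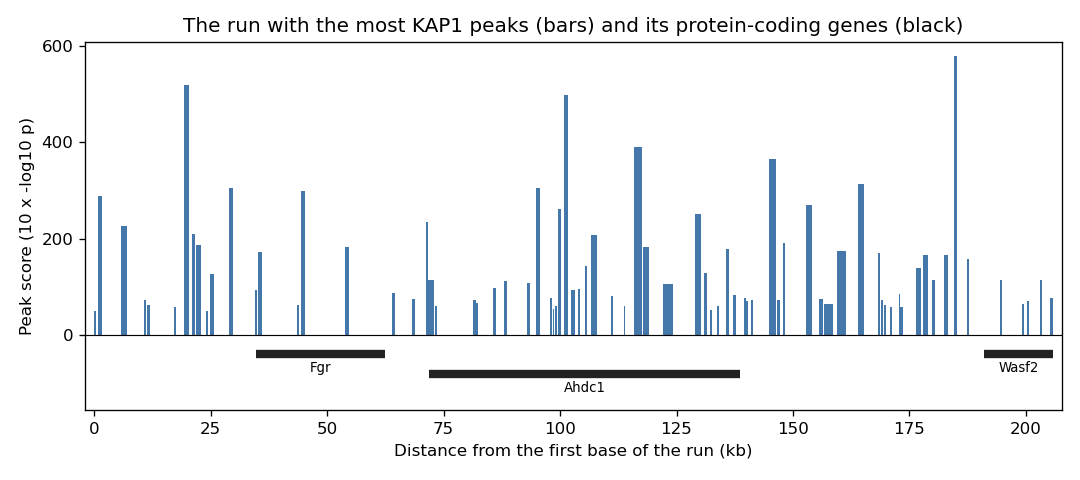
Map of the run with the most KAP1 peaks, each peak a bar as wide as the peak and as high as its score, against distance in kb from the first base of the run. The protein-coding genes are black bars below, clipped to the run, and the 76 peaks have scores from 50.5 to 578 and cover 27.4% of the 206 kb.

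Among runs of 5 or more peaks, the 8 densest spanned under 5 kb each. In Cog5, a subunit gene of a Golgi tethering complex, 5 peaks lay within 3.14 kb, or 1.59 per kb. In Cpt1a, which encodes the enzyme that commits fatty acids to mitochondrial oxidation, 7 peaks within 4.86 kb covered 84.9% of the span. The others lay in the cell cycle kinase gene Cdk6 (6 peaks in 4.45 kb), the natriuretic peptide receptor gene Npr3 (6 in 4.48 kb), Trip10 with Gpr108 (5 in 4.00 kb), the stress-response gene Gadd45g (5 in 4.03 kb) and Mxi1, a MYC antagonist gene (6 in 4.96 kb). A further run of 5 peaks in 4.00 kb lay 61190 bp from Bend4, the nearest protein-coding gene. Median gaps in these 8 runs ranged from 121 to 296 bp.

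The typical KAP1 peak was wider than the sheared fragments. The median width was 512 bp (510 to 515), with quartiles at 389 and 715 bp, and 69.2% of peaks measured 300 to 700 bp. The commonest width was 393 bp, with 263 peaks. There were 8034 peaks of at least 1 kb, 380 of at least 2 kb and 12 of at least 5 kb. The range was 134 to 10598 bp. Scores ran from 50.01 to 3100 with a median of 96.2 and quartiles of 67.0 and 156, so most peaks lay near the lower end of the scale. Width and score had a Spearman coefficient of 0.601 over all peaks, and both come from the same signal.

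The summit lay near the centre of narrow peaks and at variable places in wide ones. It fell in the central stretch of the peak, when the width is divided into 3 equal stretches, in 68.4% (68.1 to 68.8) of peaks. The median distance from the centre was 53.5 bp. Summits left of the centre made up 50.4% and right of it 49.2%. In peaks of 300 to 400 bp, 94.4% of summits were in the central stretch, at a median of 17 bp from the centre. In peaks of 500 to 700 bp the share was 54.9%, and in peaks of 1000 to 1500 bp it was 42.2%, at a median of 233 bp from the centre. In the 325 peaks of 2 to 3 kb it was 35.7%, close to the equal share of 3 stretches. When the width was divided into 5 stretches, the outermost ones on either side held 5.13% of all summits, but 24.5% in peaks of 1000 to 1500 bp and 34.5% in peaks of 2 to 3 kb.

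**Figure D4:**
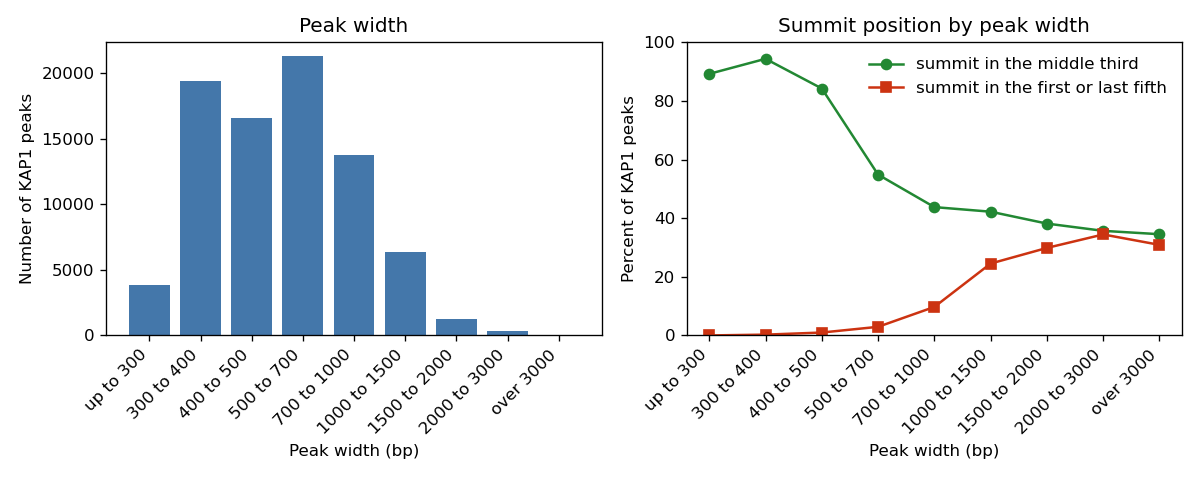
Left, number of KAP1 peaks by width class in bp, with classes of unequal width. Right, the percent of peaks in each class with the summit in the central stretch of 3 (green) or in the first or last stretch of 5 (red), where the green points go from 94.4% at 300 to 400 bp to 35.7% at 2 to 3 kb and the red ones reach 34.5%.

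The peaks of highest score were also wide, and several had their summit close to an edge. The highest score, 3100, belonged to the widest peak, 10598 bp at chrY:90736661-90747258. The nearest protein-coding gene in the RefSeq set used here was more than 1 Mb away, and genes missing from that set were not checked. The peaks ranked 2 and 4 both lay in Agrn, which encodes agrin, a proteoglycan that organises the neuromuscular junction. The former (chr4:156168420-156175549, 7130 bp) had a score of 1914. The latter (chr4:156176015-156179901, 3887 bp) had 1655 and its summit at 5.69% of its width. Another peak of the list lay 21 bp from the former, and one lay 9 bp from the latter. Between these 2 Agrn peaks in rank, a peak 154118 bp from Cops8 scored 1666. The peak ranked 5, 20373 bp from Gli2, a transcription factor gene of Hedgehog signalling, scored 1516. Its summit was at 9.35% of its width, and another peak lay 3 bp away. Zfp462, a zinc finger gene, held a peak of 6450 bp with a score of 1409. A peak 5170 bp from Klhdc8a scored 1340, with its summit at 89.7% of its width and its nearest neighbour 322 bp away. A peak 547 bp from B3gnt7, a glycosyltransferase gene, scored 1313. The widest peaks were not all of high score. A peak of 10430 bp in the filaggrin family gene Flg2 (chr3:93203524-93213953) had a score of 235. Further wide peaks of 7726 and 7148 bp on the Y chromosome had 312 and 247. A peak of 6215 bp that lay 12712 bp from the Fc receptor gene Fcgr3 had 348, and a peak of 6163 bp in Hjurp, the gene of a centromeric histone chaperone, had 365.

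Density differed between chromosomes. Across the 19 autosomes it ranged from 17.7 peaks per Mb on chromosome 14 to 50.6 on chromosome 11, with a median of 35.1. The median gap ranged from 4956.5 bp on chromosome 17 to 9806 bp on chromosome 14, and the share of peaks in runs from 50.3% to 70.0%. Density went with the number of protein-coding genes per Mb, with a Spearman coefficient of 0.747 over the 19 autosomes, which share the library. Median width (491 to 538 bp) and median score (90.7 to 106) varied little among autosomes. There were 46 peaks on 22 unplaced contigs.

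The X chromosome had fewer peaks per Mb than every autosome. It had 880 peaks, or 5.16 per Mb, with a median gap of 72052 bp. The number of X copies in these cells and how well reads map to X were not tested. Only 11.5% of its peaks lay in runs, and 25.6% were over 100 kb from any other, against at most 5.26% on an autosome. Its peaks had a median width of 411 bp and a median score of 74.6, both below the range of the autosomes. Of its 773 protein-coding genes with a start, 156 (20.2%) had a summit within 1 kb of one, against 60.6% of autosomal genes. X held 5.30 protein-coding genes per Mb, close to the 5.33 of chromosome 12, which had 28.7 peaks per Mb. In the Ring1b lists X held 2.22% of peaks (Ring1b fl/fl cells with vehicle) and 2.80% (KAP1 fl/fl cells with drug), against 1.06% of the KAP1 list. The Ring1b list of KAP1 fl/fl cells was called against a different line, Ring1b fl/fl cells with drug. The Y chromosome had 87 peaks, or 0.958 per Mb. How well reads map to Y was not tested either.

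**Figure D5:**
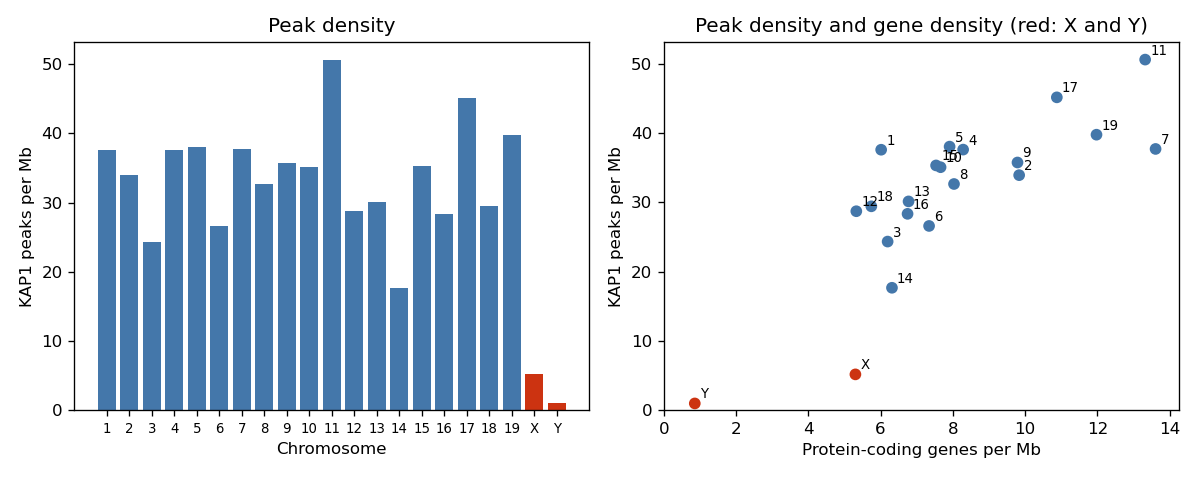
KAP1 peaks per Mb on each chromosome (left), and the same against protein-coding genes per Mb with 1 point a chromosome (right). Autosomes (blue) lie between 17.7 and 50.6 peaks per Mb, X at 5.16 and Y at 0.958 (red).

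The longest stretches without a KAP1 peak were on Y and chromosome 14. Of the 5 longest, 4 were on Y, from 6.81 to 10.5 Mb. The other was 6.11 Mb on chromosome 14 (chr14:106255380-112367474), where it holds Slitrk1, Slitrk6 and Slitrk5, genes of neuronal membrane proteins. It adjoins a stretch of 5.81 Mb (chr14:112368215-118180199) that holds the glypican genes Gpc5 and Gpc6, the pigment enzyme gene Dct, and Tgds and Gpr180. Autosomes were examined separately for this after the values were seen. A single peak with a score of 125 (chr14:112367475-112368214) separates both stretches, so 11.9 Mb with 8 whole protein-coding genes held 1 KAP1 peak. The rest of chromosome 14 had 19.6 peaks per Mb. The next longest stretch on any autosome was 2.36 Mb, at the cadherin gene Cdh11 on chromosome 8. Over the same 11.9 Mb the Ring1b list of Ring1b fl/fl cells had 7 of its 13516 peaks (0.0518%). The Ring1b list of KAP1 fl/fl cells given the drug had 23 of its 8928 peaks (0.258%). The strongest of the former scored 1585 and the strongest of the latter 120. The latter list was called against Ring1b fl/fl cells given the drug, which are a different line. Copy number and read mapping in this stretch were not tested, so the values do not show that KAP1 is absent there.

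The 6 tables were then used to place each peak. A KAP1 peak overlapped a promoter region, 1 kb on either side of a start, in 18.5% (18.2 to 18.8) of cases, and a gene of the gene tables in 54.6% (54.2 to 54.9). Outside all 6 tables lay 36845 peaks, or 44.5% (44.2 to 44.9). Repeats were not annotated here, so the share of peaks at retrotransposons is not known. By class, 8.21% of peaks overlapped a shared promoter and 10.3% a KAP1 only promoter. For genes the shares were 33.3% and 21.3%. No peak overlapped a Ring1b only promoter or gene, which the definition of those classes fixes.

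Peaks outside the tables were mostly not far from them. Their median distance to the nearest table region was 25099 bp. Within 5 kb lay 18.0% of them and within 100 kb 78.8%, and 683 were more than 1 Mb away. The 5 farthest were all on Y, at up to 42681519 bp, with scores from 50.6 to 115. Measured to each class separately, peaks that did not overlap it lay a median of 87622 bp from a shared promoter, 76364 bp from a KAP1 only promoter and 1010434 bp from a Ring1b only promoter. The classes differ in size, with 5236, 6919 and 884 promoter regions, so these distances are not comparable between them. Of all KAP1 peaks, 0.536% lay within 5 kb of a Ring1b only promoter.

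The place of a peak went with its shape. The 15318 peaks in promoter regions had a median width of 714 bp, a median score of 126 and the summit in the central stretch in 55.1%. The 30612 peaks in genes but in no promoter region had 481 bp, 92.3 and 71.5%. Peaks outside all tables had 477 bp, 89.8 and 71.4%, close to those in genes. Single peaks, with no other within 10 kb, made up 23.7% of peaks in promoter regions, 20.8% of those in genes and 26.2% of those outside.

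Most promoters that the tables assign to KAP1 held 1 summit close to their centre. Of 12155 such regions, 9749 had 1 summit inside, 2059 (16.9%) had 2 or more, and 347 had none although a peak was assigned to them. The nearest summit lay a median of 152 bp (148 to 157) from the centre. In 1486 (72.2%) of the promoters with 2 or more summits, summits lay on both sides of the centre. Neighbouring summits within a promoter were a median of 793 bp apart. A shared promoter of Apobec3, the gene of a cytidine deaminase that restricts retroviruses, had 4 summits, and a KAP1 only promoter of the kinase gene Sgk1 had 5. These promoters were picked as the maxima of their tables after their values were seen.

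The gene tables name 1 KAP1 region per gene, while most of their genes held several. All 6067 and 6478 summits named for shared and KAP1 only genes were in the list. For promoters, 5026 of 5236 (96.0%) of shared and 6732 of 6919 (97.3%) of KAP1 only regions named a summit of the list. Of the shared genes, 4490 overlapped 2 or more peaks, and the named region was the highest-scoring in 93.7% of them. Of the KAP1 only genes, 3798 did, with 93.3%. The tables thus give 1 peak where a shared gene had a median of 3 and a KAP1 only gene a median of 2.

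Across the genome, 12865 of 21031 protein-coding genes (61.2%) held at least 1 KAP1 summit inside the gene, and 9854 of 16853 genes with a start (58.5%) had one within 1 kb of it. These shares are the background for the gene groups below. At least 2 summits were found in 7719 genes, at least 10 in 815 and at least 50 in 12. A longer gene can hold more summits, so gene lengths are given too. The median length of all protein-coding genes was 17.7 kb.

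Among protein-coding genes Gse1 had the most summits, 75 in 353 kb (chr8:120228501-120581383), with a highest score of 817. On chromosome 18, the overlapping models Gm37013, Gm38666 and Gm38667 had 67, 65 and 63. They are nested, so the 63 lie in each of them, and Gm37013, the longest, spans 54 clustered protocadherin genes, whose products are neuronal adhesion proteins. Dst, which encodes the cytoskeletal linker dystonin, had 60 in 401 kb, and Nav1, a microtubule-associated neuron navigator gene, had 56 in 254 kb. Etl4 had 56 in 900 kb, and the RNA-binding protein gene Msi2 had 55 in 379 kb. The methyltransferase gene Smyd3 had 53 in 566 kb, and Pitpnc1, a phosphatidylinositol transfer protein gene, had 52 in 263 kb.

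Per kb, among genes of at least 10 kb, the order was led by genes of 10 to 17 kb. Zscan10, a zinc finger gene of embryonic stem cells, had 8 summits in 10.2 kb, or 0.785 per kb. Klf5, a Krüppel-like factor gene of the pluripotency network, had 10 in 14.7 kb (0.679 per kb), and Zbtb7a, a zinc finger repressor gene, had 11 in 17.0 kb. Jak3, a cytokine receptor kinase gene, had 9 in 14.2 kb. The others of the first 10 were Mettl27, Ppp1r18, Agtrap, Acsbg3, Trp53i11 and Gas2l1, with 0.624 to 0.774 per kb.

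Of 19 genes of the naive pluripotent state 17 held a summit, beside 61.2% of all genes, with a median of 3 summits in a median length of 7.15 kb. A summit lay within 1 kb of the start in 12 of the 13 with a start in use, beside 58.5% of all genes. Esrrb, an orphan nuclear receptor gene, had 36 summits in 161 kb with a highest score of 665. Tfcp2l1, a Grainyhead-like factor gene, had 26 in 57.2 kb with a highest score of 732. Nr5a2, another nuclear receptor gene, had 12 in 118 kb with a highest score of 718. In all 3 the peak at the start was not the highest, with 98.1 in Esrrb, 243 in Tfcp2l1 and 244 in Nr5a2. The 2 genes without a summit inside, Klf2 and Utf1, had one just before the start, at -138 and -48 bp.

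A further list holds KAP1 itself, its zinc finger recruiters and its partners in chromatin. Of these 24 genes 22 (91.7%) held a summit, beside 61.2% of all genes, with a median length of 28.8 kb. Within 1 kb of the start 20 of 21 (95.2%) had one, beside 58.5% of all genes. Zfp809, the recruiter to proviral DNA, had 12 summits in 28.5 kb and its highest, 264, at 279 bp from the start. Smarcad1, a chromatin remodeller gene, had 11 in 73.5 kb with a highest score of 566. The de novo DNA methyltransferase gene Dnmt3a had 11 in 113 kb with 212, and Morc3 had 8 in 44.0 kb with 627. Setdb1, the methyltransferase gene, had 4 with its highest of 201 at 113 bp from the start, and Cbx5, which encodes HP1 alpha, had 4 with its highest of 432 at -19 bp. Setdb1 and Cbx5, and the genes without a summit named in this and the neighbouring lists, were named after their values were seen. The genes without a summit inside, Cbx3 and Zfp932, had one at -784 and -35 bp.

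Genes of growth control held a summit in 12 of 13 cases (92.3%), beside 61.2% of all genes, with a median length of 11.5 kb. Ccnd3, the cyclin D3 gene, had 26 in 94.6 kb with a highest score of 734, and the retinoblastoma gene Rb1 had 11 in 133 kb. The cell cycle inhibitor gene Cdkn1a had 5 in 9.74 kb, with its highest peak, 398, at 2 bp from the start. Mycn had 5 in 5.74 kb. Mxd1, the exception, had its nearest summit 7477 bp from the gene, and the summit nearest its start was at -15408 bp.

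Lineage regulators, which are mostly silent in stem cells, held a summit in 21 of 23 cases (91.3%) in a median length of 6.35 kb. Within 1 kb of the start 13 of 16 (81.25%) had one. The shares of all genes were 61.2% and 58.5%. The median over genes of the highest score inside was 95.7, against 192 in naive pluripotency genes and 154 over all genes with a summit. The highest of more summits tends to be higher. The median number of summits was 2 in lineage regulators and 3 in naive pluripotency genes, so the groups differ in this too. Peaks just before a gene are left out of these medians in every group. Sox1 had a peak of 304 at -3 bp beside 102 inside, and the naive pluripotency gene Klf4 353 at -255 bp beside 147 inside. Tfap2c, a trophoblast and germ cell factor gene, and Pax6, a neural and eye factor gene, had 5 summits each with highest scores of 364 and 340. Sox17, an endoderm factor gene, had 4 with a highest score of 74.9, and Eomes, a mesendoderm factor gene, had 3 with 198. Of the 39 Hox genes 26 (66.7%) held a summit, in a median length of 3.74 kb, and 12 of 22 (54.5%) had one within 1 kb of the start. Both shares were near those of all genes, 61.2% and 58.5%. Hoxa3 had 9 in 44.0 kb, Hoxb3 5 in 40.8 kb and Hoxd3 4 in 36.3 kb, with a highest score of 153 among these 3.

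Imprinted genes, at which KAP1 is known to act through ZFP57, held a summit in 22 of 26 protein-coding cases (84.6%). The share of all genes was 61.2%, and the median length of these 26 was 32.4 kb. Within 1 kb of the start it was 13 of 20 (65.0%), near the 58.5% of all genes. Kcnq1, a potassium channel gene, had 11 summits in 320 kb with a highest score of 549. Commd1 also had 11, in 84.8 kb, with 337. H13 and Snrpn had 9 each, in 39.2 and 468 kb, with 281 and 127. Of the same list, Zrsr1 lies inside Commd1 and Mcts2 inside H13. Peaks at these inner genes therefore count for the outer genes too. Among noncoding imprinted genes, H19 had none inside, with the nearest at 2152 bp, and Meg3 had 1 with a score of 63.5. Airn had 12, but it overlaps Igf2r, and the highest of them, 321, is the Igf2r promoter peak. Where ZFP57 binds at imprinted genes was not examined, so counts by gene borders and starts do not test its known action. Zinc finger genes with a numbered Zfp name held a summit in 286 of 365 cases (78.4%), and 243 of 303 (80.2%) had one within 1 kb of the start. Their median length was 18.2 kb. Zfp532 had 32 in 109 kb, Zfp462 31 in 139 kb, Zfp423 26 in 300.2 kb and Zfp704 24 in 183 kb. KAP1 is known for peaks at the far end of zinc finger genes. Here, in genes of at least 5 kb, the last 2 kb held a summit in 13.1% (9.48 to 17.6) of 289 such genes and 10.8% (10.3 to 11.3) of 12841 others, and those intervals overlap. Within 1 kb of the first base the shares were 72.3% (66.8 to 77.4) and 60.6% (59.7 to 61.4). The zinc finger genes were chosen by name and not by a KRAB domain, and exons were not placed. The shares at the far end therefore do not test the known pattern.

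Other groups mark the range. All 10 housekeeping genes with a start in use had a summit within 1 kb of it. Inside the gene body, of median length 5.13 kb, 7 of 12 (58.3%) had one, near the 61.2% of all genes. Tubb5 had 3 summits with a highest score of 475, Actb 3 with 251, Gapdh 2 with 368 and Sdha 1 with 238. Marker genes of fibroblasts, the type of the feeder cells, held a summit in 8 of 16 cases (50.0%), in a median length of 33.9 kb. Within 1 kb of the start 3 of 10 (30.0%) had one, beside 58.5% of all genes. Fn1, which encodes fibronectin, had 14 in 67.8 kb and Col1a1, a collagen gene, 3 in 16.8 kb, while Col1a2, Col3a1, Dcn and Postn, named after their values were seen, had 0. Sensory receptor genes, which are silent outside sensory neurons, held a summit in 26 of 1463 cases (1.78%) in a median length of 0.951 kb, and 9 of 1266 had one within 1 kb of the start. Vmn2r62, Vmn2r3 and Vmn2r85 had 2 each, and Olfr94 had 1 with a score of 326.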

How the data were processed

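Peaks were called by the authors with MACS 1.4.2 on 1 KAP1 library against the other, per the file headers. CASAVA 1.8.2, Bowtie2 and bedtools 2.16.2 and the build mm10 (GRCm38) are named in the submitters' processing notes. The score deposited by the authors is 10 times the -log10 p of a peak, and summit positions are given as deposited, per the file headers. The sources used here give no read depths, so the precision of a single peak is not known. The 6 deposited tables carry scores in the same unit.

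Gaps, runs, widths, summit places and distances were computed in Python 3.11.15 with numpy 2.4.6, pandas 2.3.3 and scipy 1.17.1, and the code was tested on simulated peaks. Coordinates are 1-based, and width counts both end bases. Overlap means at least 1 bp. A run has gaps of at most 10 kb. Genes, starts and promoter sequences come from RefSeq tables of GRCm38.p6, without exons. A summit within a gene's borders counts for each overlapping gene. Shares have Clopper-Pearson intervals, medians order-statistic intervals. The peaks described and the gene lists were chosen with earlier results of these data known. Named were Trim28 and Rnf2, the 8 highest, widest, longest-run and densest-run entries, the 5 longest stretches and 5 farthest peaks, 10 genes by count and 10 by density, and up to 4 genes a list by count. Some entries may not be reported here. Alternatives were the upper 50% of scores, autosomes, merged peaks and other limits. No test between conditions was made.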

Additional observations from a re-analysis of the deposited data

How the results depend on the processing

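Of 33 alternatives 26 moved a value beyond its counting interval and 7 did not. The median gap of 6565 bp was 12208 bp in the upper 50% of scores (41387 peaks), 6425 bp on autosomes, 7921 bp with gaps of at most 200 bp merged (76501 peaks) and 7159 bp from summit to summit. The share in runs, 61.0%, was 45.7% in the upper 50% of scores, 61.6% on autosomes, 57.0% after merging, 43.8% with gaps of at most 5 kb, 75.9% with gaps of at most 20 kb and 42.9% in runs of at least 5. The median width of 512 bp was 659 bp in the upper 50% of scores and 526 bp after merging. The share of summits in the central stretch, 68.4%, was 61.9% in the upper 50% of scores, 66.3% after merging and 48.9% in peaks of at least 500 bp. The share in promoter regions, 18.5%, was 24.2% in the upper 50% of scores, 17.8% after merging, 17.1% with at least 50% of the peak inside and 29.6% within 5 kb. The share in genes, 54.6%, was 58.4%, 52.0% and 63.1% in the upper 50% of scores, with at least 50% inside and within 5 kb. The distance from a promoter centre to the nearest summit, 152 bp, was 304 bp in the upper 50% of scores, where fewer peaks are left, and 179.5 bp when the highest-scoring peak was used.

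Of alternatives chosen after seeing the data, the share of summits within 5 kb of a start that lay from 300 bp before to 100 bp after it, 33.4%, was 39.8% in the upper 50% of scores and 32.8% for genes with 1 start. The X share, 1.06%, was 0.590% in the upper 50% of scores. The causes of these shifts were not tested beyond the construction of each alternative. No paired analysis was possible because each group has 1 library and no result comes from a test between groups. The list is that of 1 vehicle library against 1 drug library, so a place without a peak is not shown to lack KAP1. Widths and gaps under about 200 bp are at the stated fragment length.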
